A study of Mus musculus with 8 samples.

Results

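Malat1, Neat1, Meg3, Miat and Snhg11 are long RNAs that are mostly not translated and are known from nuclei or from nerve cells. They were taken by gene symbol, 5 of the 55414 genes in the count table, and they were chosen by their counts in these same libraries, abundance and the comparison of genotypes alike. The table held 8 libraries of cells sorted as enteric neurons, which form the nervous system of the gut, from mouse colon at 4 weeks of age. There were 4 libraries from Emb knockdown mice and 4 from WT mice. Emb encodes embigin, a membrane glycoprotein that partners with lactate transporters, and the study's title asks about its part in enteric neuronal development. Colon cells of both genotypes were dissociated, stained for CD24 and CD56, and sorted into lysis buffer at about 250 cells a tube, and a Smart-seq kit amplified the RNA. The sources used here do not give how the knockdown was made, the promoter or cell type it used, or the strain. The labels name 4 mice of each genotype but do not tie each tube to 1 mouse, so every p-value reads only the spread from library to library, some of it possibly technical.

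Malat1 is retained in nuclear speckles, the bodies where splicing factors are stored. Neat1 scaffolds paraspeckles, bodies that hold RNA-binding proteins and edited RNAs, and its gene lies next to Malat1. Meg3 is expressed from the maternal copy of the Dlk1-Dio3 imprinted locus. Miat, also called Gomafu, is a nuclear RNA of mouse neurons that binds splicing factors, and Snhg11 hosts small nucleolar RNAs in its introns and is enriched in mouse brain. In bulk samples such as these, fewer cells of a type and less RNA per cell cannot be told apart.

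Malat1 and the long form of Neat1 end alike, and the shared end is shown because it marks how these 2 RNAs are made. Both of these end in a triple helix that forms when the RNA is cut, in place of a poly(A) tail. In GENCODE release M21 on GRCm38, Malat1 lies on the minus strand of chromosome 19 at 5795690 to 5802672, as a lincRNA whose longest transcript is 1 exon. Neat1 lies on the same strand at 5824708 to 5845478, 22036 bases away. The stretches below, 5′ to 3′ on that strand, are bases 6592 to 6691 of Malat1 (chr19:5795982-5796081) and bases 20672 to 20771 of Neat1 (chr19:5824708-5824807). Capitals mark 3 blocks that both hold in the same order.
Malat1: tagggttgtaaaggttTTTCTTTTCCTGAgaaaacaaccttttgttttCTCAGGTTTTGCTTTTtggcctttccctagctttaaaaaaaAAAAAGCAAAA
Neat1: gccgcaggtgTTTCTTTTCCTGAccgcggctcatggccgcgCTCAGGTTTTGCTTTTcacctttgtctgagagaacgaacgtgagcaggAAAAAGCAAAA
The first block, 13 bases long, lies in the longest transcript of 17 of 29786 annotated genes whose longest transcript has at least 1000 bases. The second, of 16 bases, lies in 2 of them. The third, of 11 bases, lies in 278, which is 0.9333%. All 3 together lie in 2 of the 29786, or 0.006715%, searched on the transcript strand. Those 2 are Malat1 and Neat1, from which the blocks were taken, and both are also counted for each single block. The annotated Malat1 transcript goes on for 292 bases after its stretch, while that of Neat1 stops there.

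Miat carries copies of TACTAAC, the sequence that SF1 binds at intron branch points, and these copies are shown because SF1 (Sf1) is a known partner of Miat. Miat lies on the minus strand of chromosome 5 at 112213228 to 112229395, and its longest transcript has 7 exons and 9163 bases. That transcript, searched on its own strand, holds 6 copies in 2 clusters of 3, at chr5:112217309-112217460 and chr5:112216752-112216812. The copies are in capitals, 5′ to 3′ on the minus strand of GRCm38.
Miat first cluster: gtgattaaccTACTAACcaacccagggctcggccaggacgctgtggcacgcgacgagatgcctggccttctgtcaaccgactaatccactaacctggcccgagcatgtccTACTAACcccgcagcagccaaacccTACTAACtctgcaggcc
Miat second cluster: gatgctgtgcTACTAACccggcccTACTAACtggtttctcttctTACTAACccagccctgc
Of the 658 genes with a transcript at least as long, 21.6% held 1 copy or more in a stretch of that length and 0.152% held at least 6. Both shares count Miat itself. Neat1 held 1 copy, and Malat1, Meg3 and Snhg11 held 0. Meg3 lies on the plus strand of chromosome 12 at 109541001 to 109571726 as a lincRNA. Snhg11 lies on the plus strand of chromosome 2 at 158375638 to 158386145, and GENCODE M21 annotates it as protein coding.

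Across the whole series, total counts ranged from 2024372 to 2712754 in Emb knockdown and from 698930 to 954191 in WT. The ribosomal RNA gene Rn18s-rs5 took 29.2% to 42.5% of the counts in Emb knockdown and 3.55% to 13.0% in WT (exact two-sided permutation p = 0.02857, which 4 against 4 cannot go below; 0.0571 when adjusted for 6 such measures). Emb had 5, 25, 3 and 5 counts in Emb knockdown and 4, 6, 22 and 16 in WT, with a log2 fold change of -1.24 ± 0.82 (SE; edgeR adjusted p = 0.530), and a decrease was not detectable. Its level lay near the receptor-gene background, described below, in both groups, at 0.189 to 1.99 times in Emb knockdown and 0.435 to 2.15 times in WT. Counts this low cannot show how far Emb was reduced. The summed level of 15 enteric neuron markers was 359 to 574 CPM in Emb knockdown and 400 to 645 CPM in WT. Single neuron markers differed in direction. Syt1, a synaptic calcium sensor, averaged 116 ± 20.5 CPM in Emb knockdown and 223 ± 59.9 CPM in WT, and Elavl3, a neuronal RNA-binding protein, 85.8 ± 15.3 CPM in Emb knockdown and 168 ± 48.5 CPM in WT, neither with overlap (edgeR adjusted p = 0.532 and 0.513). Uchl1, a neuronal ubiquitin hydrolase, averaged 105 ± 128 CPM in Emb knockdown and 10.4 ± 11.01 CPM in WT (edgeR adjusted p = 0.342). Of the 15 neuron markers, 9 to 12 lay above the receptor-gene background in Emb knockdown libraries and 7 to 11 in WT libraries. Markers of enteric glia were present too, with 4 to 5 of 6 above that background in Emb knockdown and 3 to 6 in WT. Gfap, the glial intermediate filament, averaged 131 ± 69.0 CPM in Emb knockdown and 73.4 ± 26.8 CPM in WT (SD, n = 4 each). Epithelial markers summed to 99.4 to 222 CPM in Emb knockdown and 165 to 198 CPM in WT, and fibroblast, muscle and endothelial markers to 422 to 1454 CPM in Emb knockdown and 429 to 1900 CPM in WT. No marker was at 0 in all libraries of a group. Here and below CPM is counts scaled to a common library size, which cannot be compared between genes of different length, with sizes adjusted by TMM factors.

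Malat1 was the most abundant of the 5. It had 22180, 24272, 7130 and 4465 counts in Emb knockdown replicates 1 to 4 and 2461, 1153, 1993 and 1531 in WT replicates 1 to 4. In TMM-normalised CPM it stood at 13175, 11473, 3435 and 2494 in Emb knockdown and at 2820, 1182, 1352 and 1910 in WT. Emb knockdown replicates 1 and 2 lay far above all others, replicate 3 lay just above WT, and replicate 4 lay within the WT range, so the groups overlapped. The means were 7644 ± 5462 CPM in Emb knockdown and 1816 ± 738 CPM in WT (SD, n = 4 each). The log2 fold change was 2.07 ± 0.68 (SE), given as a description because this contrast was known when the genes were chosen. Malat1 ranked 6 to 36 by count among all genes in Emb knockdown and 23 to 56 in WT.

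Neat1 showed another pattern. It had 1560, 770, 1089 and 1226 counts in Emb knockdown and 1412, 562, 406 and 764 in WT. That was 927, 364, 525 and 685 CPM in Emb knockdown and 1618, 576, 275 and 953 CPM in WT. All 4 Emb knockdown libraries lay inside the WT range, whose ends were WT replicates 1 and 3. The log2 fold change was -0.45 ± 0.71 (SE), and it was 0.13 without WT replicate 1 and 0.24 when libraries were scaled to receptor genes. The table gives 1 count per gene, so the short and long forms of Neat1, of which the long one builds paraspeckles, were not separated.

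**Figure D1:**
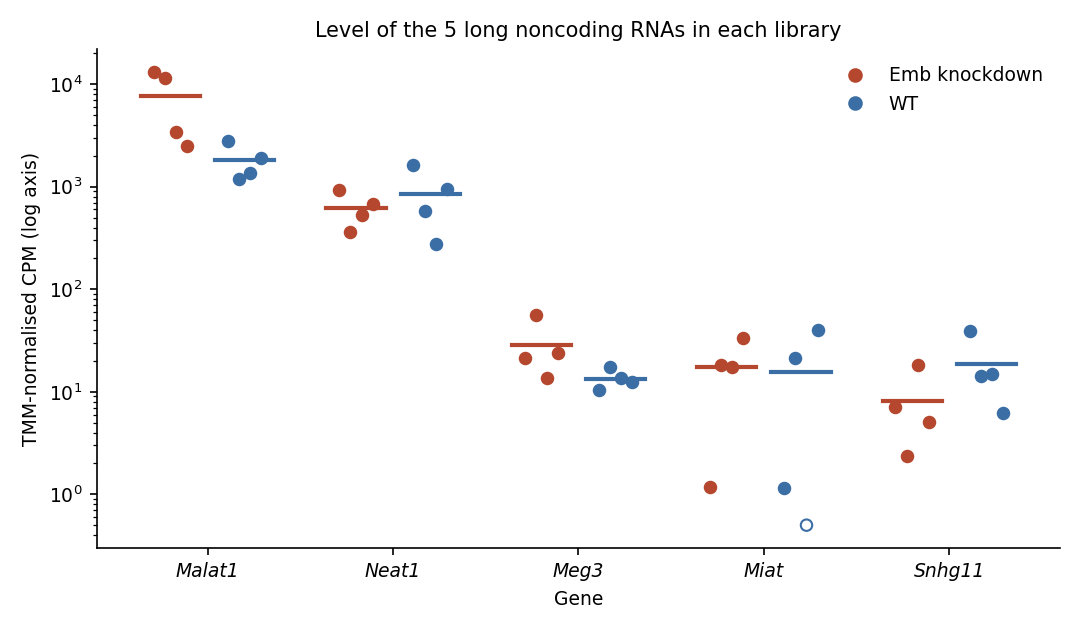
TMM-normalised CPM on a log axis of each of the 5 RNAs in Emb knockdown libraries (left, red) and WT libraries (right, blue), with points in the order of replicates 1 to 4, lines at the means and an open circle for Miat in WT replicate 3, which had 0 counts. Malat1 reaches 13175 CPM in Emb knockdown against at most 2820 CPM in WT, and the points of the groups overlap for every gene.

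Since Malat1 and Neat1 are counted in the same library, their ratio needs no scaling. Neat1 counts were 7.03%, 3.17%, 15.3% and 27.5% of Malat1 counts in Emb knockdown and 57.4%, 48.7%, 20.4% and 49.9% in WT. Only Emb knockdown replicate 4 and WT replicate 3 crossed, and the other 3 Emb knockdown libraries lay below all WT libraries. The mean share was 13.2% ± 10.7 in Emb knockdown and 44.1% ± 16.3 in WT (SD, n = 4 each). Per exonic kilobase, the level of Malat1 was 42.3, 93.8, 19.5 and 10.8 times that of Neat1 in Emb knockdown and 5.18, 6.10, 14.6 and 5.96 times in WT. Exonic length joins all annotated exons, which for Neat1 is the 20.77 kb of the long form. Counts from the short form would make the level of Neat1 per kilobase read too low and these ratios too high. Malat1 took 30.2%, 27.5%, 10.3% and 4.43% of all lncRNA counts in Emb knockdown and 6.12%, 2.68%, 3.87% and 4.57% in WT. Among annotated lncRNA genes it ranked 1, 1, 1 and 5 in Emb knockdown and 2, 3, 1 and 3 in WT.

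**Figure D2:**
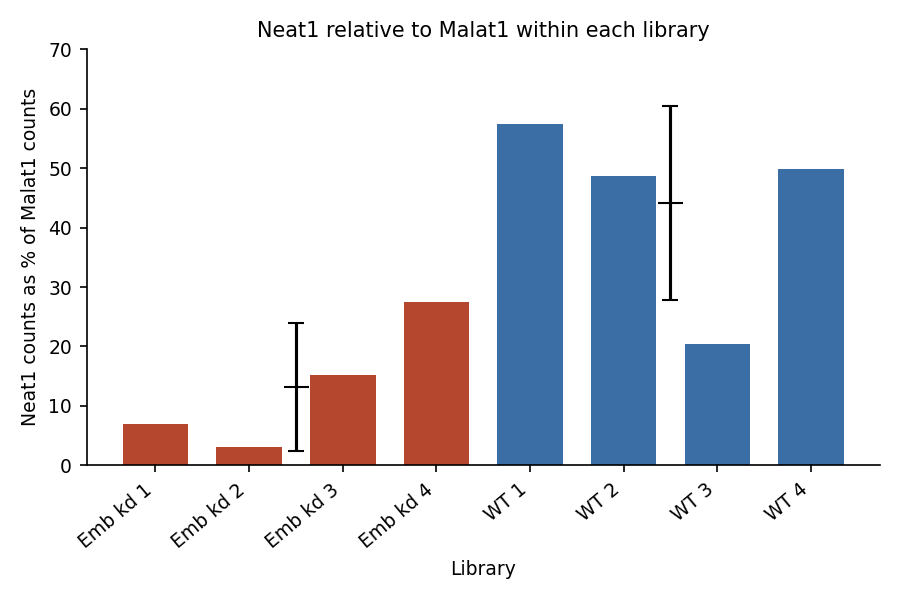
Bars give Neat1 counts as a percent of Malat1 counts in each library, Emb knockdown in red and WT in blue, with the mean and SD of each group in black. The bars run from 3.17% to 27.5% in Emb knockdown and from 20.4% to 57.4% in WT.

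The levels of markers of other cell types stand beside those of Malat1. Of 10 macrophage and leukocyte markers 8 were tested, and 7 had a positive log2 fold change, where 5872 of all 11353 tested genes did. None of the 8 passed the adjusted p in edgeR, 4 were higher at an unadjusted p under 0.05 and DESeq2 called 2. Of all 11353 tested genes, 0 passed the adjusted p in edgeR, 8.67% were higher at an unadjusted p under 0.05 and DESeq2 called 6.02%. With library totals alone 4 of the 8 were higher and 4 lower. Their summed level was 3020 to 5199 CPM in Emb knockdown and 567 to 2243 CPM in WT. Most of it was C1qa, a subunit of complement C1q, at 3510 ± 891 CPM in Emb knockdown and 1322 ± 678 CPM in WT (log2 fold change 1.41 ± 0.61, edgeR adjusted p = 0.355). The other 9 markers together held 255 to 814 CPM in Emb knockdown and 112 to 171 CPM in WT. The part of these cells in the level of Malat1 was not tested. Of fibroblast, muscle and endothelial markers, those other than Pecam1, an endothelial adhesion molecule, summed to 259 to 613 CPM in Emb knockdown and 85.9 to 299 CPM in WT. Col1a2, a collagen chain, averaged 86.8 ± 39.3 CPM in Emb knockdown and 21.7 ± 15.05 CPM in WT, with no overlap (log2 fold change 1.99 ± 0.69, edgeR adjusted p = 0.312). Pecam1 went the other way, at 393 ± 531 CPM in Emb knockdown and 1074 ± 586 CPM in WT (-1.45 ± 0.95, edgeR adjusted p = 0.528). Of the 8 tested markers of this list 5 were higher and 3 lower, with a median of 1.21. Without Emb knockdown replicate 1 the median was 0.03, with 4 higher and 4 lower. The part of stromal cells was not tested either.

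Meg3, Miat and Snhg11 were far scarcer, and the word abundant does not describe them here. As a measure of background, the counts of each gene per exonic kilobase were set over those of 1478 olfactory, vomeronasal and trace amine receptor genes, which gut neurons are not known to use broadly. Malat1 lay at 377 to 2496 times this background in Emb knockdown and 128 to 264 times in WT. On this scale its groups did not overlap, but the share of all genes that are apart on it was not computed. The receptor genes themselves held 2610 to 6205 CPM of library totals in Emb knockdown and 8329 to 11624.5 in WT. Scaled to them, the median log2 fold change of all tested genes was 0.65, against 0.04 with TMM factors, so this scale raises genes in general in Emb knockdown. Neat1, by the length of its long form, lay at 20.4 to 59.0 times in Emb knockdown and 9.65 to 51.0 times in WT. The other 3 lay below 4 times in every library, and each lay under the background in at least 1 library of both groups.

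The order of the levels per exonic kilobase began with Malat1, at 1095 ± 782 CPM per kb in Emb knockdown and 260 ± 106 in WT (SD, n = 4 each). Neat1, by the length of its long form, came next, at 30.1 ± 11.6 CPM per kb in Emb knockdown and 41.2 ± 27.9 in WT. Miat, Meg3 and Snhg11 averaged 1.90 ± 1.42, 1.58 ± 1.03 and 0.963 ± 0.823 CPM per kb in Emb knockdown and 1.68 ± 2.04, 0.743 ± 0.165 and 2.18 ± 1.66 in WT. Their order differed between the groups, and these 3 did not differ beyond their spread.

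Meg3 had 36, 118, 28 and 43 counts in Emb knockdown and 9, 17, 20 and 10 in WT. In CPM this was 21.4, 55.8, 13.5 and 24.02 in Emb knockdown and 10.3, 17.4, 13.6 and 12.5 in WT. Emb knockdown replicates 1, 2 and 4 lay above all WT libraries and replicate 3 lay among them. Relative to the receptor genes Meg3 stood at 0.675 to 3.58 times background in Emb knockdown and 0.373 to 0.729 times in WT, so no WT library held more of it per kilobase than the pooled background. Its length of 18.09 kb joins the exons of 11 transcripts, and a shorter form in use would stand higher. Single receptor genes varied, and Meg3 stood above 55.1% to 96.0% of them per kilobase in Emb knockdown libraries and above 62.7% to 73.7% in WT libraries. The log2 fold change was 1.09 ± 0.60 (SE), with 0.55 when Emb knockdown replicate 2 was left out and 0.42 with library totals alone.

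Miat had 2, 39, 36 and 60 counts in Emb knockdown and 1, 21, 0 and 32 in WT, or 1.19, 18.4, 17.3 and 33.5 CPM in Emb knockdown and 1.15, 21.5, 0 and 39.9 CPM in WT. It was near 0 in 1 Emb knockdown library and in 2 WT libraries. The log2 fold change of 0.19 ± 1.21 (SE) was smaller than its error. Its SD of log2 CPM was 1.65 in Emb knockdown and 2.40 in WT, larger than that of 88.9% of tested genes in Emb knockdown and of 97.7% in WT. The lincRNA Gm26953, which overlaps Miat on the opposite strand, had 3, 2, 6 and 10 counts in Emb knockdown and 0, 0, 7 and 12 in WT. The sources used here do not say whether counting used strand, so reads of this pair cannot be told apart.

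Snhg11 had 12, 5, 38 and 9 counts in Emb knockdown and 34, 14, 22 and 5 in WT. This was 7.13, 2.36, 18.3 and 5.03 CPM in Emb knockdown and 39.0, 14.3, 14.9 and 6.24 CPM in WT. Only Emb knockdown replicate 3 lay above the WT median, and the groups overlapped. The log2 fold change was -1.17 ± 0.79 (SE), and leaving out 1 library at a time gave -1.90 to -0.47. The annotated small nucleolar RNAs inside Snhg11, Gm25129 and Gm25187, had at most 1 count in any library. How well the kit recovers RNAs this short was not tested, so these counts do not show whether they were made.

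**Figure D3:**
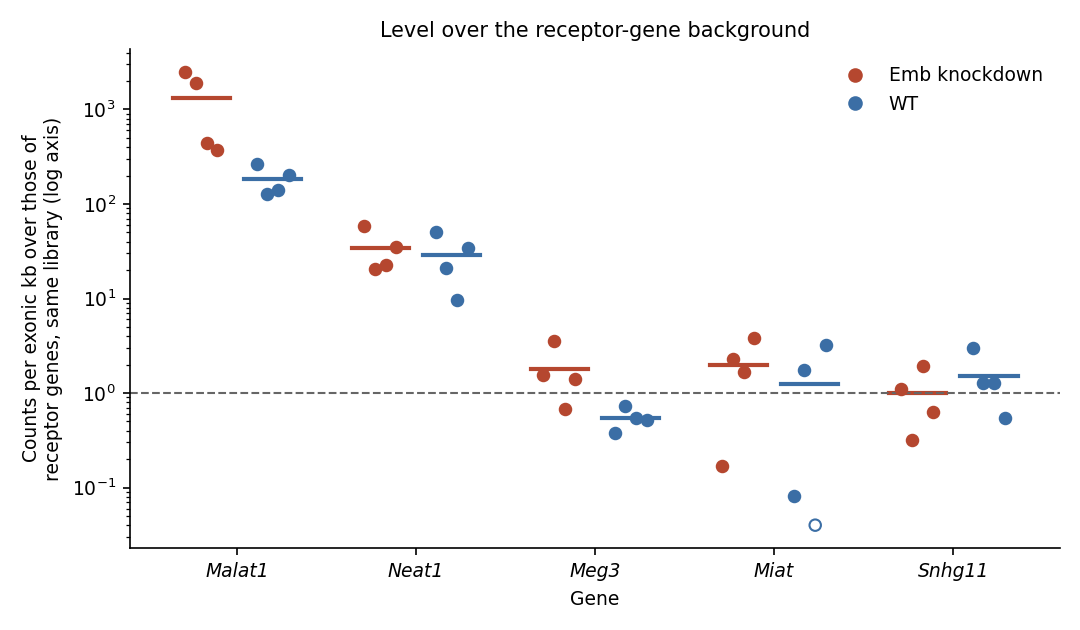
Counts per exonic kilobase of each RNA over those of 1478 receptor genes in the same library, on a log axis, with Emb knockdown (left, red) beside WT (right, blue), points in the order of replicates 1 to 4, lines at the means, a dashed line at background and an open circle for 0 counts. Malat1 and Neat1 lie above the dashed line in every library, while Meg3, Miat and Snhg11 straddle it.

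All 5 genes passed the filter on low counts, and in TMM-normalised CPM the groups overlapped for all 5, so 0 of the 5 were apart, where 8.28% of the 11353 tested genes had groups that did not overlap (4.04% higher and 4.24% lower in Emb knockdown). The median log2 fold change of all tested genes was 0.04 with TMM factors, -0.59 with library totals alone and 0.65 when libraries were scaled to receptor genes. Set against that median, Malat1 stood at 1.72 to 2.40 across all settings and left-out libraries, Meg3 at 0.55 to 1.32 and Snhg11 at -1.91 to -0.56. Neat1 stood at -0.81 to 0.05 and Miat at -0.31 to 1.79, so the sign of neither held in every setting.

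**Figure D4:**
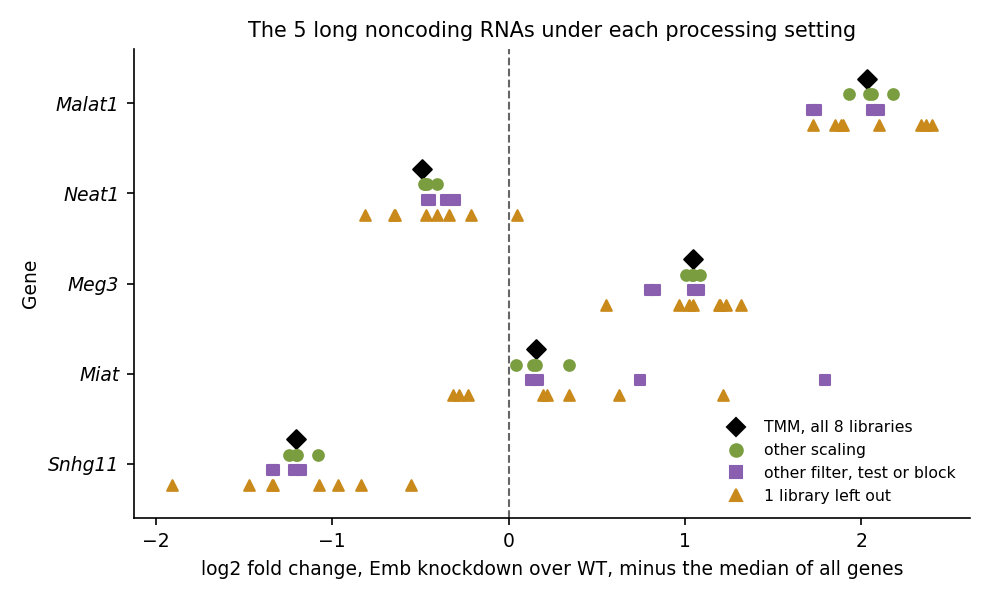
Log2 fold change of each RNA, Emb knockdown over WT, minus the median of all genes in the same fit, with 1 mark per processing setting or left-out library and a dashed line at 0. Malat1 and Meg3 lie right of the line and Snhg11 left of it in every setting, while Neat1 and Miat cross it.

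The genes whose log2 CPM followed each RNA most closely over the 8 libraries had r up to 0.99. For Malat1 they were Jund, a subunit of the AP-1 transcription factor, with Pearson r = 0.99, Eif4g2, a translation initiation factor, with r = 0.97, and Sparc, a matrix glycoprotein, with r = 0.96. For Neat1 they included Zfp839 and Flnc, each with r = 0.94, and for Meg3 they were Bach1, Unc93b1 and Hivep2, with r of 0.91 to 0.95. Ankrd11, Dnah17 and Rap2b came closest to Miat (r of 0.78 to 0.83), and Ubn2, Pan3 and Ptpn13 to Snhg11 (r of 0.86 to 0.94). Malat1 and Neat1 themselves had r = 0.08. These are the highest of 1645 or 1646 genes compared for each RNA, and the 8 points share library depth and genotype.

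No gene passed the adjusted p in the comparison of Emb knockdown with WT, 0% of 11353 by edgeR, where 1510 (13.3%) had an unadjusted p under 0.05. DESeq2's Wald test put 683 genes (6.02%) past its adjusted p and limma voom 0. In edgeR 8.67% of tested genes were higher and 4.63% lower in Emb knockdown at an unadjusted p under 0.05, and these shares are the background for the counts that follow.

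Of 27 nuclear speckle proteins, the partners of Malat1 in the nucleus, 25 were tested and 19 were higher in Emb knockdown. Their median log2 fold change was 0.81, against 0.04 for all genes. With library totals alone 13 were higher and 12 lower, with a median of 0.20 against -0.59 for all genes. At an unadjusted p under 0.05, 5 were higher and 2 lower, 20% and 8% of those tested, and 0 passed the adjusted p in edgeR. Single libraries made the largest values. Tra2b, a splicing activator, had 2626, 21.3, 33.7 and 36.3 CPM in Emb knockdown and 45.8, 43.0, 16.96 and 11.2 CPM in WT (log2 fold change 4.53 ± 1.61, edgeR adjusted p = 0.312). Without Emb knockdown replicate 1 its log2 fold change was 0.06, and the median of the list was 0.32 with 15 of 24 higher.

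Srsf2, a serine and arginine rich splicing factor, had 185, 4.25, 11.6 and 13.96 CPM in Emb knockdown and 2.29, 1.02, 7.46 and 3.74 CPM in WT (log2 fold change 3.80 ± 1.22, edgeR adjusted p = 0.304), and its log2 fold change was 1.37 without Emb knockdown replicate 1. Sf3b1, a subunit of the U2 snRNP, averaged 78.2 ± 69.6 CPM in Emb knockdown and 15.3 ± 11.4 CPM in WT (2.34 ± 0.88, edgeR adjusted p = 0.320). Rnps1, a splicing regulator of the exon junction complex, had 30.3, 25.1, 19.3 and 24.02 CPM in Emb knockdown and 1224, 33.8, 45.4 and 22.5 CPM in WT (-3.74 ± 1.31, edgeR adjusted p = 0.312). Its log2 fold change was -0.39 without WT replicate 1. Son and Srrm2, the core scaffolds of speckles, were picked after their values were seen. Son averaged 188 ± 17.1 CPM in Emb knockdown and 108 ± 58.4 CPM in WT (0.81 ± 0.66, edgeR adjusted p = 0.617), and Srrm2 had a log2 fold change of -0.26 ± 0.70.

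Of 24 paraspeckle proteins, the partners of Neat1, 22 were tested, 10 higher and 12 lower in Emb knockdown, with a median of -0.22. The median was 0.44, with 15 higher, when scaled to receptor genes. At an unadjusted p under 0.05, 1 was higher and 2 lower. Zfp24, a zinc finger protein, had 57.0, 81.3, 94.4 and 40.2 CPM in Emb knockdown and 22.9, 30.7, 10.2 and 13.7 CPM in WT, with no overlap (1.81 ± 0.62, edgeR adjusted p = 0.308). Hnrnph3, an hnRNP splicing regulator, had 5.35, 3.78, 4.82 and 5.03 CPM in Emb knockdown and 9.17, 24.6, 14.9 and 21.2 CPM in WT, again with no overlap (-1.86 ± 0.60, edgeR adjusted p = 0.304). Smarcb1, a chromatin remodelling subunit, averaged 8.42 ± 3.73 CPM in Emb knockdown and 38.4 ± 36.8 CPM in WT (-2.17 ± 0.73, edgeR adjusted p = 0.306), and -1.17 without WT replicate 4. Cpsf7, a 3′ end processing factor, was high in Emb knockdown replicate 1 alone, at 149 CPM.

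The proteins that build paraspeckles on Neat1 were named after their values were seen. Sfpq averaged 98.9 ± 98.7 CPM in Emb knockdown and 55.9 ± 24.9 CPM in WT (0.82 ± 0.75, edgeR adjusted p = 0.664). Pspc1 had a log2 fold change of -0.52 ± 0.64. Nono was under the filter, with 2, 6, 15 and 0 counts in Emb knockdown and 3, 3, 11 and 0 in WT.

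All 4 splicing factors known to bind Miat were tested, 3 higher and 1 lower, with a median of 0.93, or 0.19 with 2 higher under library totals alone. Qk, an RNA-binding protein of glia, had 206, 68.5, 99.3 and 130 CPM in Emb knockdown and 50.4, 24.6, 62.4 and 42.4 CPM in WT, with no overlap (1.48 ± 0.65, edgeR adjusted p = 0.360). Srsf1, a splicing activator, averaged 35.9 ± 36.3 CPM in Emb knockdown and 13.4 ± 9.94 CPM in WT (1.40 ± 0.86, edgeR adjusted p = 0.498), and 0.43 without Emb knockdown replicate 1. Sf1, which binds the TACTAAC element shown above, averaged 21.6 ± 1.66 CPM in Emb knockdown and 15.8 ± 9.95 CPM in WT (0.45 ± 0.62, edgeR adjusted p = 0.793), and its sign turned with library totals alone. Celf3, a splicing regulator of neurons, had a log2 fold change of -0.43 ± 0.91, which turned positive when scaled to receptor genes.

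The nuclear decay and 3′ end processing list, whose exosome trims nuclear RNAs, had 10 of 12 genes tested, 7 higher and 3 lower, with a median of 0.21, or -0.46 with 4 higher under library totals alone. Exosc10, a nuclease of the nuclear exosome, had 17.2, 44.9, 227 and 31.3 CPM in Emb knockdown and 2.29, 9.22, 27.8 and 3.74 CPM in WT (2.85 ± 1.02, edgeR adjusted p = 0.312). It was the 1 gene of the list with an unadjusted p under 0.05, and its log2 fold change was 1.45 without Emb knockdown replicate 3. Rpp14, a subunit of RNase P, which cuts the 3′ end of Malat1 and of long Neat1, was high in Emb knockdown replicate 3 alone, at 293 CPM against at most 14.2 CPM elsewhere. Xrn2 and Zcchc8 had log2 fold changes of 1.07 ± 0.79 and 0.75 ± 0.78.

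**Figure D5:**
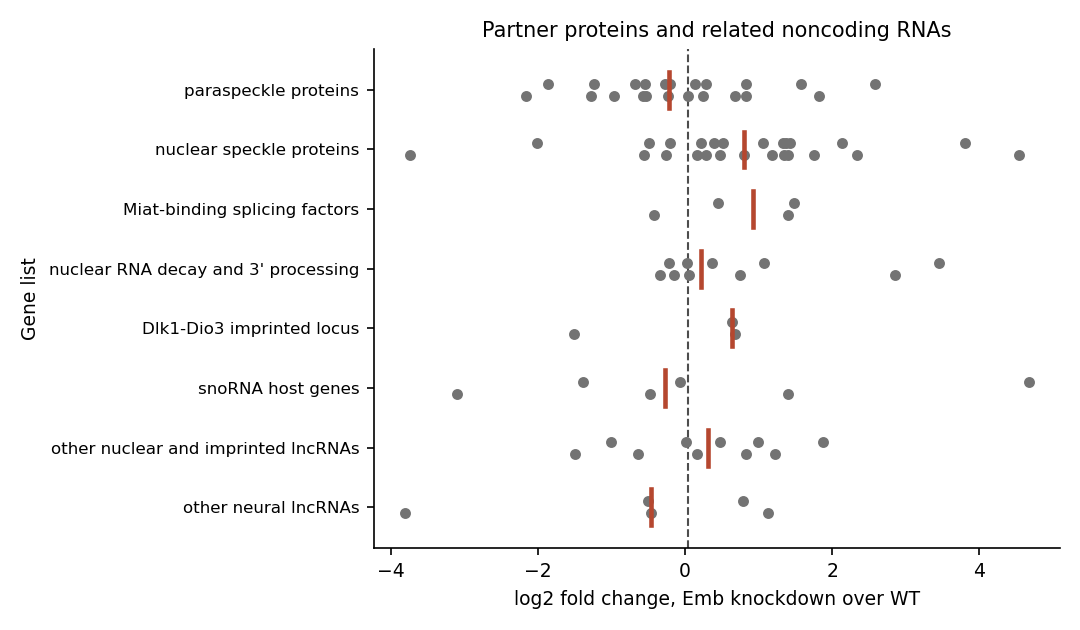
Log2 fold change, Emb knockdown over WT, of each tested gene (grey points) in the lists of partner proteins and related noncoding RNAs, with the median of each list in red and that of all 11353 tested genes as a dashed line. The nuclear speckle list has its median at 0.81 and the paraspeckle list at -0.22, and 0 of the genes drawn passed the adjusted p.

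Of the 6 genes of the Dlk1-Dio3 locus besides Meg3, 3 were tested and 0 had an unadjusted p under 0.05. Rian, the next maternal noncoding RNA of the locus, averaged 23.2 ± 9.15 CPM in Emb knockdown and 14.3 ± 11.7 CPM in WT (0.68 ± 0.73, edgeR adjusted p = 0.722). Dlk1, the paternally expressed Notch ligand, averaged 8.77 ± 7.23 CPM in Emb knockdown and 5.69 ± 4.36 CPM in WT (0.63 ± 0.95, edgeR adjusted p = 0.817). Both signs turned with library totals alone. Rtl1, a paternally expressed gene derived from a retrotransposon, averaged 4.76 ± 3.10 CPM in Emb knockdown and 13.7 ± 10.2 CPM in WT (-1.51 ± 0.94, edgeR adjusted p = 0.508).

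Of 19 other snoRNA host genes, 6 were tested, 2 higher and 4 lower in Emb knockdown, with a median of -0.27. The median turned to 0.29 when scaled to receptor genes, 0.25 and 0.83 without Emb knockdown replicates 2 and 4, and 0.34 without WT replicate 3. Snhg8 had 35.0, 562, 86.2 and 24.02 CPM in Emb knockdown and 8.02, 18.4, 0 and 1.25 CPM in WT, with no overlap (4.67 ± 1.46, edgeR adjusted p = 0.295), and 2.80 without Emb knockdown replicate 2. Snhg1 was high in WT replicate 3 alone, at 180 CPM, and its log2 fold change of -3.10 ± 1.33 (edgeR adjusted p = 0.352) was 0.25 without it. Zfas1 had a log2 fold change of 1.40 ± 1.17, and -0.22 without Emb knockdown replicate 1. Snhg14, the host of the imprinted Snord115 and Snord116 clusters, stood at -1.38 ± 0.74.

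Among 17 other nuclear or imprinted noncoding RNAs, 10 were tested, 7 higher and 3 lower (4 higher and 6 lower with library totals alone), and 0 had an unadjusted p under 0.05. Dleu2, the host of the miR-15a and miR-16-1 cluster, was the 1 whose groups did not overlap, at 44.6, 295, 188 and 257 CPM in Emb knockdown and 634, 688, 499 and 394 CPM in WT (-1.49 ± 0.74, edgeR adjusted p = 0.403). Xist, which silences the inactive X, averaged 16.3 ± 11.4 CPM in Emb knockdown and 4.37 ± 2.95 CPM in WT (1.87 ± 0.90, edgeR adjusted p = 0.394). Kcnq1ot1, an imprinted silencing RNA, averaged 121 ± 53.5 CPM in Emb knockdown and 67.7 ± 28.3 CPM in WT (0.83 ± 0.64, edgeR adjusted p = 0.596). Lncpint, a p53-induced RNA, had a log2 fold change of 1.22 ± 0.90, and 0.03 without Emb knockdown replicate 1.

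Of 10 other neural noncoding RNAs, 5 were tested, with a median of -0.46 that turned to 0.21 when scaled to receptor genes, 0.22 in limma voom and 0.36 with the replicate block. Bc1, a cytoplasmic RNA of neurons, averaged 1484 ± 904 CPM in Emb knockdown and 861 ± 541 CPM in WT (0.79 ± 0.82, edgeR adjusted p = 0.711). Pantr1 had a log2 fold change of -3.81 ± 1.18 (edgeR adjusted p = 0.295), and -1.15 without WT replicate 4, which held 307 CPM against at most 18.3 CPM elsewhere. The microRNA hosts Mir9-3hg and Mir124-2hg stood at 1.13 ± 0.82 and -0.46 ± 0.59. As a class, the 561 tested annotated lncRNA genes other than the 5 had a median of -0.51, with 192 higher and 369 lower, against 0.04 for all genes. When scaled to receptor genes 296 were higher and 265 lower, with a median of 0.11 against 0.65 for all genes. At an unadjusted p under 0.05, 3.74% were higher and 11.1% lower, and 0 passed the adjusted p. Outside Rn18s-rs5, lncRNA genes other than the 5 took 4.55% ± 1.73 of counts in Emb knockdown and 5.32% ± 0.234 in WT (exact two-sided permutation p = 0.457).

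Genes beside the 5 RNAs were mostly too low to test. Of 148 genes within 200 kb, 24 were tested, 10 higher and 14 lower in Emb knockdown, with a median of -0.13, or 0.50 with 17 higher when scaled to receptor genes. Frmd8, 4.22 kb from Neat1, had a log2 fold change of 1.36 ± 0.77 (edgeR adjusted p = 0.469). Tfip11, a splicing factor gene 97.0 kb from Miat, stood at -1.81 ± 0.81 (edgeR adjusted p = 0.367), and at -0.84 without WT replicate 2. Ralgapb, a subunit of a Ral GTPase activator 23.7 kb from Snhg11 on the same strand, had 158, 41.6, 113 and 7974 CPM in Emb knockdown and 32.1, 5.12, 18.3 and 8.73 CPM in WT (7.00 ± 1.80, edgeR adjusted p = 0.294). Without Emb knockdown replicate 4 its log2 fold change was 2.70.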

How the data were processed

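The authors deposited raw counts, 1 whole number per gene and library. Per the submitters' processing notes, cutadapt and build mm10 were used. The aligner, counter, strand setting and annotation were not given in the sources used here. GENCODE release M21 on GRCm38 gave positions, exon lengths and sequences for 52133 of 55414 identifiers. Counts were fitted with edgeR 4.0.16 in R 4.3.3 (quasi-likelihood, robust, group only) after filterByExpr (minimum count 10, minimum total 15) with TMM factors, and p-values were adjusted by Benjamini-Hochberg over 11353 genes at a threshold of 0.05. The fit was tested on simulated data. Log2 CPM used a prior count of 2. The SE beside each edgeR log2 fold change was derived from the quasi-likelihood test, as the absolute change over the square root of its F statistic. limma 3.58.1, DESeq2 1.42.0, other scalings, no filter, a replicate block and left-out libraries were alternatives. Without molecular identifiers, amplified reads are not independent molecules.

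The 5 genes and 13 gene lists (165 of 168 genes matched) were chosen with earlier results of these data known, as was the receptor-gene measure, so the 5 get no p. Named genes were up to 4 per list by smallest unadjusted p, up to 3 per marker list by mean CPM, and the 3 closest in pattern per RNA; of tested neighbours the nearest was named, a narrowing made after the data were seen. Some genes chosen by these rules are not reported here. Single library values were compared by exact two-sided permutation over 70 assignments. Libraries with the same number did not deviate together (correlations 0.011 to 0.034), and no libraries were duplicates. Values outside the fit were computed with Python 3.11.15.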

Additional observations from a re-analysis of the deposited data

Results flagged for a closer look

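None of the 5 long noncoding RNAs had a library that stood apart from the other 3 of its group by Dixon's criterion. Among 108 groups of 4 examined, 13 did. The criterion is set to pass about 1 in 20 groups of normally distributed values. That rate does not apply here, since CPM was not logged and many of the genes were named by smallest unadjusted p. The 13 are therefore given as description. Emb knockdown replicate 1 stood apart in Tra2b at 2626 CPM (21.3 to 36.3 in the other 3), Srsf2 at 185 CPM (4.25 to 13.96), Cpsf7 at 149 CPM (4.82 to 18.4) and Zfas1 at 491 CPM (16.5 to 73.7). Emb knockdown replicate 2 stood apart in Snhg8 at 562 CPM (24.02 to 86.2). Emb knockdown replicate 3 did so in Exosc10 at 227 CPM (17.2 to 44.9), Rpp14 at 293 CPM (0.945 to 12.5) and Pecam1, an endothelial marker, at 1188 CPM (103 to 176). Emb knockdown replicate 4 held 7974 CPM of Ralgapb (41.6 to 158). In WT, replicate 1 held 1224 CPM of Rnps1 (22.5 to 45.4) and replicate 3 held 180 CPM of Snhg1 (3.07 to 6.24). WT replicate 4 held 93.6 CPM of Smarcb1 (18.3 to 21.03) and 307 CPM of Pantr1 (8.82 to 18.3).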

How the results depend on the processing

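The log2 fold change of Malat1 ranged from 1.34 to 2.83, that of Neat1 from -1.06 to 0.24, of Meg3 from 0.42 to 1.73, of Miat from -0.29 to 1.87 and of Snhg11 from -1.90 to -0.47 over the alternatives. Library totals alone gave Meg3 0.42 and scaling to receptor genes 1.73, where the median of all genes moved to -0.59 and 0.65. Genes past the adjusted p numbered 0 in edgeR, 683 with DESeq2's Wald test (6.02%; 485 higher, 198 lower) and 910 without the filter (1.88% of 48530 genes). Those with an unadjusted p under 0.05 numbered 1510, 5455 without the filter and 919 with the replicate block. Past the adjusted p, DESeq2 put 3 of 22 paraspeckle genes, 1 of 25 nuclear speckle genes, 1 of 6 snoRNA hosts, 1 of 10 RNA decay genes and 37 of 561 lncRNA genes other than the 5 (6.595%). Without the filter these were 3 of 27 nuclear speckle genes, 1 of 17 snoRNA hosts, 1 of 9 other neural RNAs, 2 of 12 RNA decay genes, 1 of 90 neighbours and 72 of 9060 other lncRNA genes (0.795%). The cause was not tested.

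Library totals alone turned the sign of Sf1 (-0.12), Rian (-0.023) and Dlk1 (-0.10). Scaling to receptor genes turned Celf3 (0.10) and Mir124-2hg (0.21). Leaving out 1 library at a time moved Celf3 over -0.72 to 0.51 and Snhg1 over -3.41 to 0.25, with the highest value of each without WT replicate 3, and Zfas1 over -0.22 to 2.27, lowest without Emb knockdown replicate 1. The median of lncRNA genes other than the 5 was -0.51, and 0.11 when scaled to receptor genes. The replicate numbers did not pair the libraries; with the replicate block Malat1 stood at 1.81, Neat1 at -0.27, Meg3 at 0.92, Miat at 0.83 and Snhg11 at -1.25, and 0 genes passed the adjusted p. Depth limits Meg3, Miat and Snhg11, which had at most 118 counts in any library.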
